A study of Mus musculus with 12 samples.

Results

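The comparison set whole adult soleus muscle against myotubes grown in a dish, and took in 6 of the 12 arrays of the series, 3 for each group, chosen by their titles alone. The myotubes came from C2C12, an established mouse myoblast line: cells at 90% confluence were switched to medium with 2% horse serum, harvested after 96 hours, detached with trypsin and replated for 30 min in proliferation medium, so that mononucleated cells attached and the floating cells, mostly myotubes, could be collected. Each soleus sample was taken from both hind limbs of 1 male CD1 mouse aged 3 months, killed by cervical dislocation, and was homogenised whole. It therefore holds fibres together with vessels, nerve, connective tissue and blood. Both groups were unmodified and untreated, and 1 µg of RNA per sample was labelled with Cy3 and hybridised to a one-colour Agilent mouse array. The 3 arrays of the fast extensor digitorum longus muscle (EDL), taken the same way from male CD1 mice of the same age, served as the muscle comparator, and the arrays of proliferating myoblasts entered only the estimate of spread. Nothing in the labels says whether the myotube samples were separate cultures, so p-values measure the spread between these samples.

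A myotube forms when myoblasts leave the cell cycle and fuse. It first builds sarcomeres from embryonic and neonatal isoforms and carries acetylcholine receptors of the fetal type over its whole surface. After birth, nerve activity and load replace these with adult slow or fast isoforms, restrict the receptor to the synapse and raise mitochondrial content. Soleus is a postural muscle rich in slow oxidative (type I) and fast oxidative (type IIa) fibres, and C2C12 myotubes in culture have neither nerve nor load. The series was deposited to study genes that control the mitochondrial pool of dNTPs, the building blocks of DNA.

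Levels are log2 signals scaled to the 75th percentile of each array, and a gene is represented by its brightest probe that passed the filter. Replicate numbers marked slides: each slide carried 1 array of every group, soleus always in 1 position and myotubes in another, and the position on the slide cannot be separated from the group. Arrays of a group correlated at 0.9808 or more for myotubes and 0.9756 or more for soleus across probes, and arrays of different groups at 0.8803 to 0.8938. The unscaled 75th percentile was 1018 to 1230 on myotube arrays and 457 to 614 on soleus arrays, while the spiked control RNAs read alike (10.85 to 11.21 and 10.89 to 11.32, log2). Scaling to the spike-in RNAs instead therefore moved every difference of the named genes down: soleus minus myotube dropped by 1.18 (log2). Counts on that second scale, which is relative to labelled RNA, are given beside the main ones as spike-in counts. Sex-linked genes separated the groups. Eif2s3y, a Y-linked gene, was at 12.57, 12.22 and 12.24 in soleus and did not rise well above background in the myotubes, and Xist was at 14.02, 13.72 and 13.47 in myotubes and not well above background on any soleus array.

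Differences reached across the transcriptome. Of 17687 genes tested, 8356 (47.2%) were called, that is, had an adjusted p under 0.05 in limma's moderated test and a difference of at least 1 on the log2 scale; 4696 (26.6%) were higher in soleus and 3660 (20.7%) lower. With spike-in scaling the split was 2322 higher and 9266 lower, so that 20% of calls were higher against 56.2% on the main scale. The counts of gene lists below are to be read beside these shares, and their spike-in counts beside this split. Myotube and soleus values did not overlap for 13568 genes (76.7%). Among called genes, 728 higher in soleus were below that background limit on every myotube array, and 547 lower in soleus were not well above background on any soleus array. Such genes were kept by the filter only through their signal in the other group, so their direction was built into their choice.

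Among genes well above background on all 6 arrays, the largest rises were in Fabp4 (a fatty acid binding protein of adipocytes and capillaries), 11.50 ± 0.65 (SE), Sln (sarcolipin, an inhibitor of the calcium pump), 11.25 ± 0.12, and Ppp1r1a (an inhibitor of protein phosphatase 1), 11.05 ± 0.16. They were followed by Perm1, a muscle regulator of mitochondrial genes, at 10.94 ± 0.43, Rpl3l, a ribosomal protein of striated muscle, at 10.26 ± 0.17, and Cmya5, a sarcomeric scaffold protein, at 10.25 ± 0.07. Fabp4 rested on uneven myotube arrays, at 4.10, 4.33 and 7.46, against 16.85, 16.66 and 16.89 in soleus. The largest falls were in Mybph (a myosin binding protein), which fell by 9.68 ± 0.07, Msln (mesothelin, a surface glycoprotein), by 9.14 ± 0.06, and Gsta1 (a glutathione transferase), by 8.88 ± 0.20. Frmpd1 fell by 8.14 ± 0.21, Chrng (the fetal subunit of the acetylcholine receptor) by 8.07 ± 0.08 and C1qtnf3 (a secreted C1q/TNF family protein) by 8.01 ± 0.13. The adjusted p of these 12 genes lay between 1.8e-11 and 5.8e-07 (limma). The brightest genes called higher were sarcomeric and metabolic: Tnnc2, Tcap, Aldoa, Myh7 and Mb, with soleus arrays between 19.44 and 19.90. A probe that the array's design names Ptprz1 was among them (1.096 ± 0.07). It was matched by that symbol alone, whether it measures that gene was not tested, and both quantile normalization and spike-in scaling turned its sign. Both also turned the sign of Tnnc2. The brightest genes called lower were Myl4, S100a4, Myh3, Crip2, Gpc1 and Chrna1, with myotube arrays between 17.38 and 17.95.

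**Figure D1:**
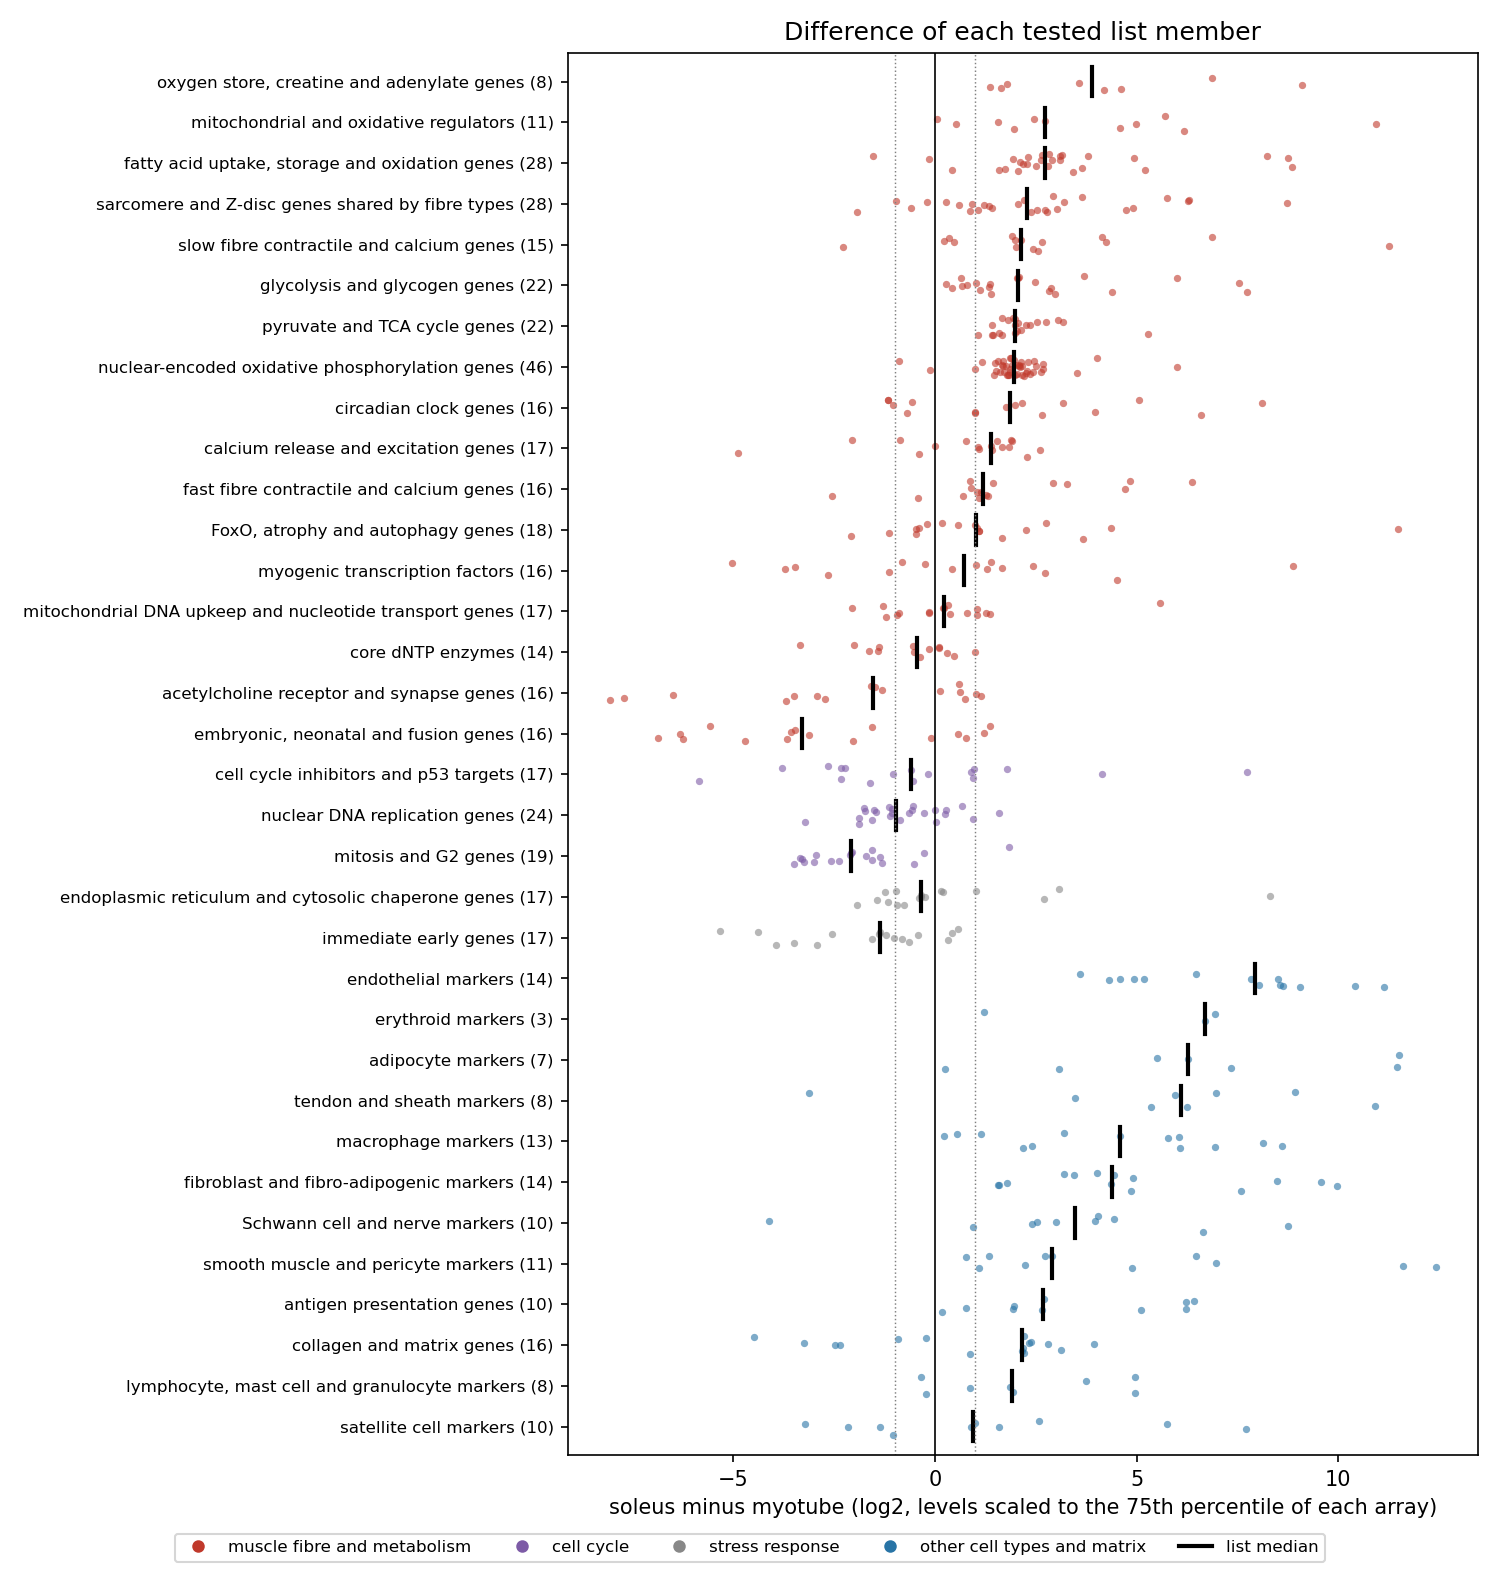
Soleus minus myotube difference (log2, x axis) for every tested member of the gene lists of fibre, cell cycle, stress and other cell types; each dot is a gene, the black bar is the list median, the number of tested members stands in brackets and dotted lines mark a difference of 1. Endothelial markers had a median of 7.94, oxidative phosphorylation genes clustered near 1.97, and the embryonic and acetylcholine receptor lists lay at -3.29 and -1.54.

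Most slow fibre genes were higher in soleus than in myotubes. Of 15 tested slow contractile and calcium genes, 11 were higher, 1 was lower and 3 were not called (median 2.13; 7 higher in the spike-in count), beside 26.6% and 20.7% of all genes. Their share of the summed signal of all tested genes, which does not depend on scaling, rose from between 1.02% and 1.09% on myotube arrays to between 3.07% and 3.17% on soleus arrays. Myh7, the slow myosin heavy chain, read 16.86, 17.02 and 17.28 in myotubes and 19.63, 19.55 and 19.63 in soleus. The difference was 2.55 ± 0.09 (SE), with adjusted p = 2.6e-08 (limma). Myl2, the slow regulatory light chain, rose by 4.15 ± 0.35, from between 14.63 and 14.89 to between 18.82 and 19.02. Tpm3, the slow tropomyosin, rose by 4.24 ± 0.20, and Atp2a2, the slow calcium pump SERCA2, by 2.00 ± 0.07.

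Sarcolipin and phospholamban, both small inhibitors of the calcium pump, stood apart from the other slow genes. Sln lay at 5.04, 5.28 and 5.21 in myotubes and at 16.41, 16.50 and 16.39 in soleus, the groups being far apart. Pln stayed below the background limit on all 3 myotube arrays and reached 8.62, 8.54 and 8.40 in soleus, at least 33.1-fold higher (adjusted p = 9.5e-10). Such bounds compare the soleus mean with the dimmest probe still well above background on each myotube array. Slow troponin C (Tnnc1) and slow troponin I (Tnni1) were not called and were near equal: Tnnc1 read 16.55, 16.74 and 16.81 in myotubes and 16.83, 16.95 and 17.001 in soleus, and Tnni1 differed by 0.34 ± 0.06. Against EDL the same 2 genes were 6.17 ± 0.07 and 5.77 ± 0.06 higher in soleus. Casq2, the calsequestrin of slow and cardiac muscle, was the exception, at 16.12, 16.07 and 16.16 in myotubes and 13.77, 13.85 and 13.87 in soleus, a fall by 2.29 ± 0.06. It was nonetheless 3.49 ± 0.06 higher in soleus than in EDL. In all, 13 of the 15 slow genes were higher in soleus than in EDL, where 10.4% of all genes were called in either direction.

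**Figure D2:**
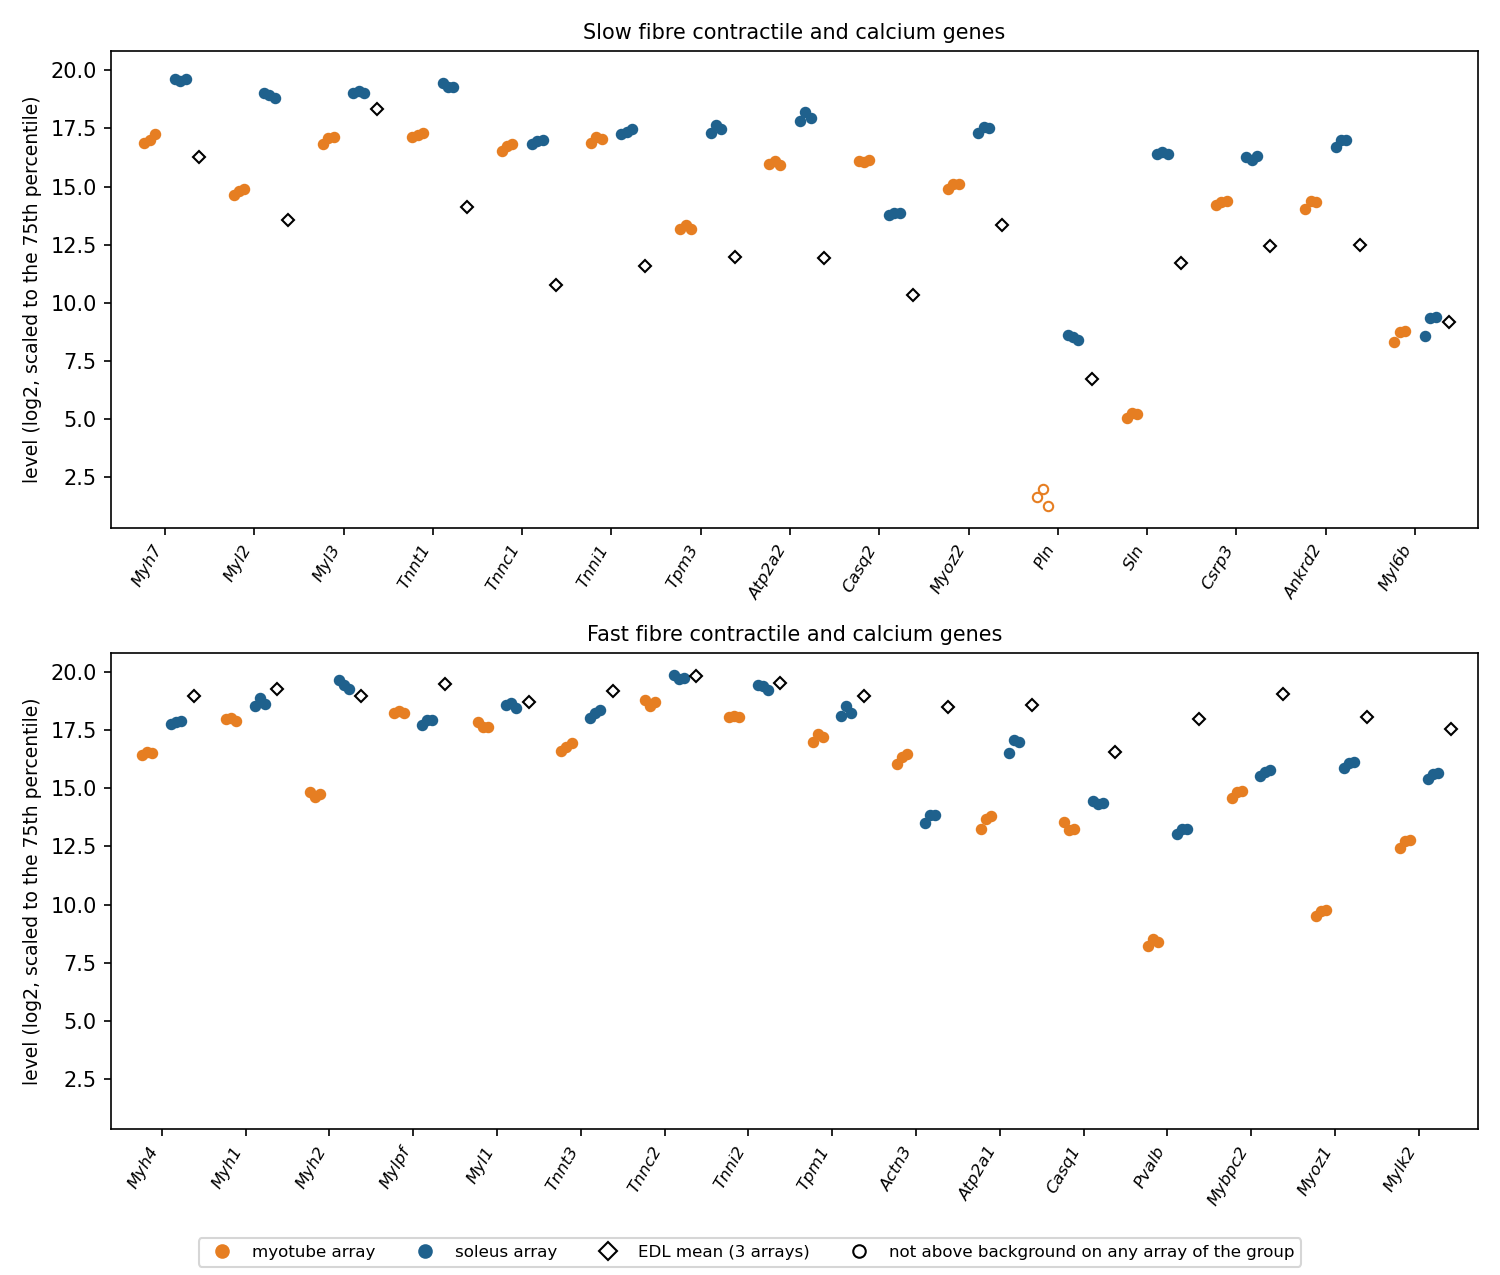
Level of each slow (top) and fast (bottom) fibre gene on the 3 myotube arrays, the 3 soleus arrays and, as a diamond, the mean of the 3 EDL arrays (y axis, log2 scaled to the 75th percentile); open circles mark genes not above background on any array of that group. Tnnc1 and Tnni1 lie within 0.34 of each other in the means of myotubes and soleus but far lower in EDL, and Pvalb runs from myotubes through soleus to EDL.

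Fast fibre genes were also mostly higher in soleus than in myotubes, by smaller amounts. Of 16 tested, 11 were higher, 1 lower and 4 not called, with a median of 1.20 that was 0.02 with spike-in scaling, where 5 were higher and 2 lower. Quantile normalization and the authors' deposited values each gave 5 higher. Myh2, the type IIa myosin heavy chain of fast oxidative fibres, showed the largest rise among the fast myosin heavy chains: 14.82, 14.63 and 14.77 in myotubes against 19.64, 19.43 and 19.26 in soleus, 4.71 ± 0.11. Myh4, the type IIb chain, rose by 1.32 ± 0.10, and Myh1, the IIx chain, read 0.71 ± 0.16 higher without being called, its 3 probes disagreeing in sign. Mylpf, the fast regulatory light chain, was not called, with 18.22, 18.34 and 18.25 in myotubes and 17.72, 17.92 and 17.93 in soleus.

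Z-disc and calcium handling genes on the fast list moved in both directions. Myoz1, a Z-disc protein of fast fibres, read 9.53, 9.72 and 9.76 in myotubes and 15.88, 16.10 and 16.13 in soleus, a rise by 6.37 ± 0.08. Pvalb (parvalbumin, a calcium buffer) rose by 4.83 ± 0.26 and Atp2a1 (the fast calcium pump SERCA1) by 3.28 ± 0.11, although both were lower in soleus than in EDL, by -4.77 and -1.74. Actn3, the fast Z-disc actinin, went the other way: 16.06, 16.34 and 16.46 in myotubes and 13.52, 13.83 and 13.86 in soleus, a fall by 2.55 ± 0.08 with no overlap. The troponins Tnnc2, Tnni2 and Tnnt3 rose by 1.09, 1.26 and 1.44. Tnnc2 and Tnni2 turned to -0.06 and -0.19 with quantile normalization. They sit near the top of the scale, where the largest soleus mean of any gene was 19.78 and the largest myotube mean 18.68, and whether signal there still followed RNA amount was not tested.

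Structural genes common to all fibre types rose in most cases: 20 of 28 were higher, 1 lower and 7 not called (median 2.29; 15 higher and 4 lower in the spike-in count). Tmod4, a cap of the thin filament in skeletal muscle, read 6.64, 6.59 and 6.42 in myotubes and 15.31, 15.35 and 15.20 in soleus, a rise by 8.73 ± 0.08. Tmod1, a paralogue that also caps the thin filament, fell by 1.92 ± 0.06. Both members of this pair were measured on all arrays with no overlap, and they moved in opposite directions. Myot (myotilin, a Z-disc protein) rose by 6.30 ± 0.09 and Mybpc1 (slow myosin binding protein C) by 6.26 ± 0.14. Tcap (telethonin, the titin cap) rose by 4.75 ± 0.12, from between 14.78 and 15.11 to between 19.64 and 19.86. Desmin, Des, the muscle intermediate filament, was not called, at -0.19 ± 0.11, and Myom2, an M-band protein, read -0.60 ± 0.11.

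Embryonic isoforms and fusion genes were lower in soleus. Of 16 tested, 11 were lower, 2 higher and 3 not called, with a median of -3.29. Myl4, the embryonic and atrial light chain, read 17.88, 17.95 and 17.78 in myotubes and 10.97, 10.90 and 11.14 in soleus, a fall by 6.87 ± 0.08. Myh3, the embryonic myosin heavy chain, fell by 5.58 ± 0.08, and Tnnt2, the cardiac and embryonic troponin T, by 6.26 ± 0.08, from 17.43, 17.44 and 17.43 to 11.05, 11.09 and 11.41. Mymk (myomaker, the fusion protein of the myoblast membrane) read 14.60, 15.03 and 14.96 in myotubes and 8.34, 9.36 and 7.97 in soleus. Its fall by 6.31 ± 0.32 was clear although the soleus arrays varied. The adhesion molecules Cdh15, Ncam1, Itga7 and Cdh2 fell by 3.46, 3.67, 3.56 and 4.72.

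Myh8, the neonatal myosin, is an uncertain member of that group. Its brightest probe read 1.36 ± 0.10 higher in soleus, but its other 2 probes gave -2.61 and -3.93, and the mean over probes was -1.72. Myosin heavy chains have near-identical stretches, so a probe can take up RNA of a relative. Mest, an imprinted hydrolase gene, was the other gene called higher (1.21 ± 0.06). Igf2, the fetal growth factor, was not called, at 12.14, 12.46 and 12.32 in myotubes and 12.17, 12.21 and 12.21 in soleus. H19, the RNA expressed from the same imprinted region, fell by 1.55 ± 0.09, and was 2.55 ± 0.09 higher in soleus than in EDL.

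Of the 5 subunits of the acetylcholine receptor 4 were lower in soleus and 1 was not called. The muscle receptor is a pentamer of alpha, beta and delta subunits with a gamma subunit in fetal and denervated muscle and an epsilon subunit in adult innervated muscle. Chrng (gamma) read 16.65, 16.90 and 16.93 in myotubes and 8.64, 8.74 and 8.91 in soleus, a fall by 8.07 ± 0.08 with adjusted p = 8.5e-11 (limma). Chrne (epsilon) was not called: 10.23, 10.499 and 10.04 in myotubes and 10.71, 11.07 and 10.80 in soleus, 0.60 ± 0.17. The subunits that both forms of the receptor share were all lower. Chrnd (delta) fell by 6.50 ± 0.08, from between 13.04 and 13.31 to between 6.59 and 6.73, Chrnb1 (beta) by 3.69 ± 0.09 and Chrna1 (alpha) by 3.501 ± 0.08. Soleus was in turn above EDL for Chrng and Chrna1, by 1.65 and 1.47, and below it for Chrne, by -1.36.

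The upstream sequences of the receptor subunits are shown because 3 of the 4 genes fell together while Chrne did not. They are the 250 bases before the annotated start of each gene, from RefSeq on GRCm38.p6, and 4 of the 5 subunits matched. Capitals mark 2 motifs searched on both strands: the E-box CAGCTG, a form bound by myogenic factors, and the N-box CCGGAA, an element of synaptic genes; the motifs do not overlap in these sequences. Chrng lies on chr1:87205561-87205810, plus strand, Chrna1 on chr2:73580339-73580588, minus strand, Chrnb1 on chr11:69795938-69796187, minus strand, and Chrne on chr11:70619195-70619444, minus strand.
Chrng: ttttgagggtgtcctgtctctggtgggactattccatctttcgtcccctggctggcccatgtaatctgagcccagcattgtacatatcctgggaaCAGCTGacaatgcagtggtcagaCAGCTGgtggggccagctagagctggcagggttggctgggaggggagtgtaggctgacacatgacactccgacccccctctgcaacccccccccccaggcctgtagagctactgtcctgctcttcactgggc
Chrna1: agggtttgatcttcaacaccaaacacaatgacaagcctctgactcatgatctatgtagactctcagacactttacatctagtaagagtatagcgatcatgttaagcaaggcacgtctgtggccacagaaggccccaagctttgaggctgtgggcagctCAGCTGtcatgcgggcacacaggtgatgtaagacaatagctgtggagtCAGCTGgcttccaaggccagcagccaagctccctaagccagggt
Chrnb1: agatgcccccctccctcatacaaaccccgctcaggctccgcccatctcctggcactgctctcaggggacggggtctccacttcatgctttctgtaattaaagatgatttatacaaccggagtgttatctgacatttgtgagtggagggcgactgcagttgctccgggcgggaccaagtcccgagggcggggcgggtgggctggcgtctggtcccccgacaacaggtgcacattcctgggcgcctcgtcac
Chrne: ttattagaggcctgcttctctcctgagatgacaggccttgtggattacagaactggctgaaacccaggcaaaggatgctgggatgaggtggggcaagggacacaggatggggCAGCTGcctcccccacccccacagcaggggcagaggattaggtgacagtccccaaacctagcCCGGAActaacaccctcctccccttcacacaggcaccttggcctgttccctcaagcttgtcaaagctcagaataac
Chrng and Chrna1 each held 2 matches to the E-box, with first bases 155 and 132 and 92 and 44 bases before the start. Chrne held 1 E-box and 1 N-box match, 138 and 76 bases before the start, and Chrnb1 neither. Across 32851 upstream windows of this length, 13% held the E-box letters and 12% the N-box letters, so a match describes these windows and says nothing of binding.

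Across all 16 receptor and synapse genes tested, 10 were lower, 2 higher and 4 not called (median -1.54), and their share of summed signal went from between 0.473% and 0.491% to between 0.0354% and 0.0389%. Organisers of the synapse were also lower: Musk (the receptor kinase for agrin) by 2.72 ± 0.28, Lrp4 (its co-receptor) by 1.57 ± 0.11, Rapsn (the scaffold that clusters receptors) by 1.498 ± 0.07 and Dok7 (an activator of Musk) by 1.32 ± 0.06. Agrn (agrin) read 1.03 ± 0.08 higher and was not called with spike-in scaling. Scn4a, the adult skeletal sodium channel, was 1.14 ± 0.17 higher, and -0.04 with spike-in scaling. Colq and Ache, the anchor and the catalytic unit of acetylcholinesterase, and Etv5 were not called.

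**Figure D3:**
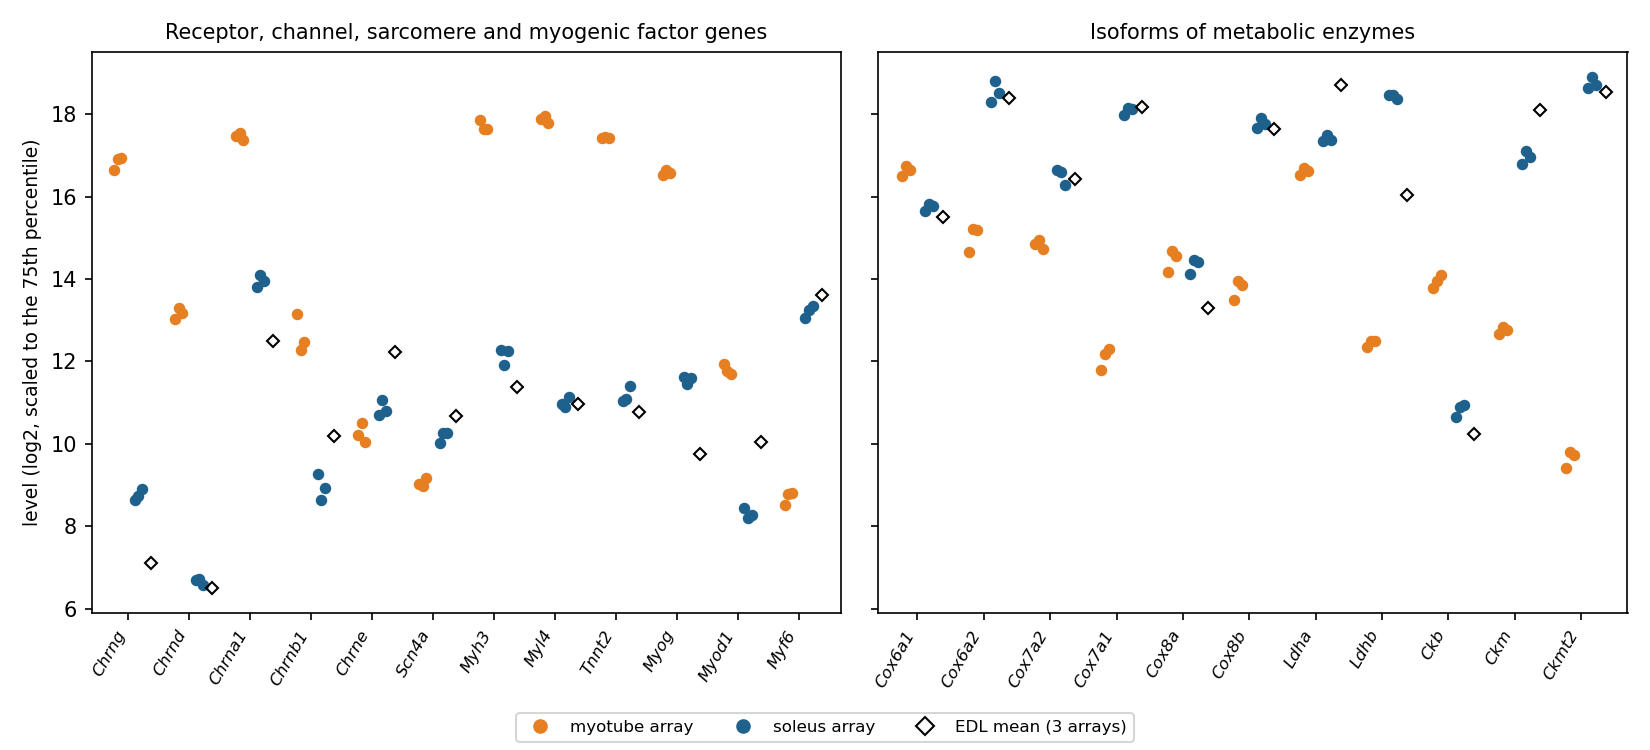
Levels (y axis, log2 scaled to the 75th percentile) on the 3 myotube and 3 soleus arrays, with the mean of 3 EDL arrays as a diamond, for receptor, channel, sarcomere and myogenic factor genes (left) and for isoforms of metabolic enzymes (right). Chrng, Myh3 and Myl4 lie above 15 in myotubes and below 13 in soleus, while Chrne differs little; Cox7a1, Ldhb, Ckm and Ckmt2 lie higher in soleus, Ckb lower, and Cox8a near equal.

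The 4 classical myogenic regulatory factors split. Myog (myogenin) read 16.52, 16.65 and 16.58 in myotubes and 11.63, 11.45 and 11.60 in soleus, a fall by 5.03 ± 0.08, and Myod1 fell by 3.48 ± 0.05. Myf5 fell by 1.14 ± 0.09, but read 0.45 with normexp correction. Myf6 (MRF4), the factor most abundant in adult muscle, rose by 4.51 ± 0.11, from 8.52, 8.78 and 8.81 to 13.04, 13.24 and 13.36. Sox6, a repressor of slow genes in fast fibres, was above background on 1 of 3 myotube arrays and read 11.75, 11.50 and 11.55 in soleus. Over the list of 16 tested factors 8 were higher, 5 lower and 3 not called, with a median of 0.73 that became -0.45 with spike-in scaling.

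Among 17 genes of calcium release and excitation, 11 were higher, 2 lower and 4 not called (median 1.40), beside 26.6% and 20.7% of all genes. The spike-in count was 2 higher and 5 lower, where 2322 of all 17687 genes were higher and 9266 lower. Quantile normalization left 7 of the 17 higher. The ryanodine receptors, the calcium release channels of the sarcoplasmic reticulum, diverged. Ryr1, the adult channel, read 14.69, 14.44 and 14.54 in myotubes and 16.83, 16.88 and 16.81 in soleus, 2.28 ± 0.10 higher. Ryr3, the channel of developing muscle, fell by 4.88 ± 0.11, from between 11.24 and 11.38 to between 6.09 and 6.68. Trdn (triadin, which links calsequestrin to the channel) rose by 2.61 ± 0.04.

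Oxidative metabolism rose nearly as a block. All 22 tested pyruvate and TCA cycle genes were called higher (median 1.99), as were 43 of 46 nuclear genes of oxidative phosphorylation, the other 3 being not called (median 1.97). Most of these differences lay close to 2, so that 7 and 14 were called higher with spike-in scaling, with medians of 0.81 and 0.79 that kept their sign. Their shares of summed signal rose, for the TCA genes from between 0.599% and 0.624% to between 1.69% and 1.80%, and for oxidative phosphorylation from between 2.25% and 2.39% to between 6.30% and 6.80%. Idh2, the mitochondrial NADP-dependent isocitrate dehydrogenase, led the TCA genes: 10.80, 10.32 and 10.29 in myotubes against 15.92, 15.61 and 15.72 in soleus, 5.28 ± 0.12. It was also the only gene of that list called between the muscles, 3.34 ± 0.12 higher in soleus than in EDL.

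The largest rises within the respiratory chain fell on the muscle isoforms of cytochrome c oxidase, the terminal enzyme. Cox7a1 read 11.80, 12.18 and 12.31 in myotubes and 17.99, 18.15 and 18.12 in soleus, 5.99 ± 0.10, while the ubiquitous Cox7a2 rose by 1.67 ± 0.06. Cox8b rose by 4.02 ± 0.11 and Cox6a2 by 3.53 ± 0.14. Their ubiquitous partners were not called: Cox8a read 14.18, 14.69 and 14.55 in myotubes and 14.13, 14.46 and 14.41 in soleus (-0.14 ± 0.05), and Cox6a1 read -0.88 ± 0.05. Between soleus and EDL the same isoforms differed by -0.08, 0.15 and 0.15 for Cox7a1, Cox8b and Cox6a2, none of them called.

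Fatty acid genes were mostly higher in soleus. Of 28 tested, 25 were higher, 1 lower and 2 not called (median 2.72; 19 higher in the spike-in count), and their signal share went from between 0.270% and 0.277% to between 1.59% and 1.62%. Plin5, which coats lipid droplets beside mitochondria, read 4.23, 5.51 and 5.82 in myotubes and 13.95, 13.92 and 14.21 in soleus, 8.84 ± 0.28. Lpl, the lipase that frees fatty acids in capillaries, rose by 8.77 ± 0.05. Cpt1b, the muscle enzyme of fatty acid entry into mitochondria, rose by 8.23 ± 0.07, from between 7.87 and 7.97 to between 15.91 and 16.27. Acsl6, a long-chain acyl-CoA synthetase, fell by 1.53 ± 0.09, with 1 of its 4 probes opposite in sign. Transcriptional regulators of this programme rose too, 9 of 11 tested being higher (median 2.72). Perm1 read 4.71, 3.43 and 4.06 in myotubes and 14.83, 15.12 and 15.06 in soleus, Ppara rose by 6.19 ± 0.12 and Esrrg by 5.71 ± 0.15, whereas Nrf1 was not called (0.05 ± 0.13).

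Glycolysis and glycogen genes were higher for 17 of 22, with 5 not called (median 2.05; 9 higher in the spike-in count). The insulin-responsive glucose carrier Slc2a4 read 9.09, 9.30 and 9.21 in myotubes and 16.90, 16.95 and 16.93 in soleus, 7.73 ± 0.05. Phkg1, the catalytic subunit of muscle phosphorylase kinase, was above background on 1 of 3 myotube arrays and reached 10.93, 9.31 and 10.98 in soleus. Lactate dehydrogenase differed by subunit: Ldhb, the heart form, rose by 5.99 ± 0.06, from between 12.35 and 12.49 to between 18.37 and 18.48, while Ldha, the muscle form, read 0.80 ± 0.07 higher and was not called. Core enzymes such as Gapdh (0.65) and Pgk1 (0.28) were likewise not called. All 8 genes of oxygen storage, creatine and adenylate metabolism were higher (median 3.89; 5 in the spike-in count). Ckmt2, the mitochondrial creatine kinase of muscle, rose by 9.10 ± 0.14 and Ckm, the cytosolic one, by 4.20 ± 0.10, while the brain form Ckb, listed with the embryonic genes, fell by 3.11 ± 0.06. Car3, the carbonic anhydrase abundant in slow fibres, read 10.58, 10.82 and 10.85 in myotubes and 17.57, 17.58 and 17.72 in soleus, and Mb (myoglobin) rose by 3.58 ± 0.07.

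Clock genes were higher for 10 of 16, lower for 3 and not called for 3 (median 1.87). Dbp, an output gene of the clock, read 10.06, 10.56 and 10.60 in myotubes and 15.25, 15.63 and 15.52 in soleus, 5.06 ± 0.07. Hlf, a transcription factor driven by the clock, was called higher, at 10.40, 10.11 and 10.04 in soleus and above background on 2 of 3 myotube arrays. Arntl, the activator of the loop, fell by 1.03 ± 0.07, and its repressors Per1, Per2 and Per3 rose by 2.15, 2.66 and 3.96. The hour of collection is not given in the sources used here, and the myotubes were held 30 min in fresh proliferation medium before lysis. Time of day, handling and tissue therefore cannot be told apart. Among 18 FoxO, atrophy and autophagy genes 9 were higher, 2 lower and 7 not called, with a median of 1.01 that was -0.17 with spike-in scaling. Klf15, a transcription factor induced by glucocorticoids, was not well above background in any of the myotubes and reached 13.22, 13.10 and 13.12 in soleus, at least 816-fold higher. Mstn (myostatin, a brake on muscle growth) was 4.36 ± 0.26 higher than in myotubes, where 2 of 3 arrays were above background, and -4.47 ± 0.26 against EDL.

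Of 14 tested dNTP enzymes, which give the series its title, 5 were lower, 1 higher and 8 not called (median -0.45). Over all genes, 20.7% were lower, 26.6% higher and 47.2% called in either direction. The spike-in count of these enzymes was 11 lower, where 9266 of all 17687 genes were lower. Ribonucleotide reductase, which makes deoxyribonucleotides anew, fell in both S-phase subunits. Rrm2, its cell cycle subunit, read 11.15, 11.14 and 11.31 in myotubes and 7.74, 7.92 and 7.92 in soleus, a fall by 3.34 ± 0.12 with adjusted p = 2.8e-08 (limma). Rrm1, the catalytic subunit, read 13.19, 13.30 and 13.28 against 11.23, 11.27 and 11.26, a fall by 2.00 ± 0.06. Rrm2b, the p53-inducible small subunit used outside S phase, was not called (-0.15 ± 0.07, adjusted p = 0.065 in limma), with 9.56, 9.88 and 9.54 in myotubes and 9.45, 9.66 and 9.42 in soleus, the soleus array being the lower one on each slide. Tyms (thymidylate synthase) fell by 1.39 ± 0.08 and Nt5c, a cytosolic deoxyribonucleotidase, by 1.63 ± 0.07.

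Salvage kinases were closer to equal. Dguok, the mitochondrial deoxyguanosine kinase, read 10.46, 10.79 and 10.72 in myotubes and 11.39, 11.85 and 11.74 in soleus, 1.00 ± 0.07 higher, and -0.17 with spike-in scaling. Tk2, the mitochondrial thymidine kinase, read -0.37 ± 0.06 and Dck, the cytosolic deoxycytidine kinase, -0.55 ± 0.11, neither being called. Tk1, the S-phase thymidine kinase, was not called and read slightly above myotubes, 8.39, 8.74 and 8.80 against 7.92, 8.32 and 8.29. Against EDL, soleus Tk1 was at -1.58 ± 0.08. Samhd1, which degrades dNTPs, read -0.53 ± 0.06, with 2 probes of opposite sign, and Dut, Nt5m and Tymp differed by 0.10, 0.10 and 0.30. Dctd was not well above background on any soleus array, at least 2.03-fold lower, but read 1.03 with normexp correction.

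**Figure D4:**
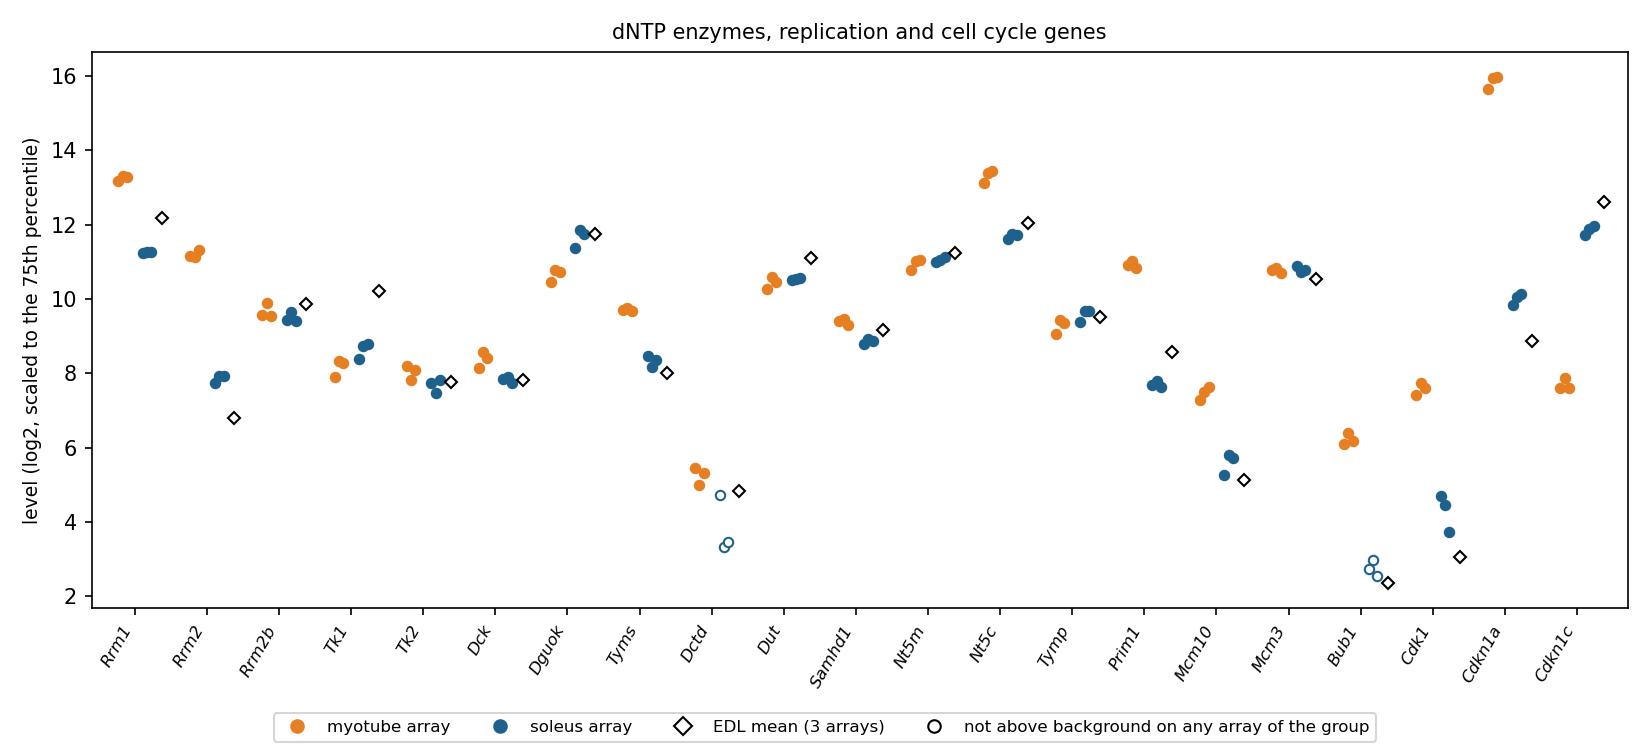
Levels (y axis, log2 scaled to the 75th percentile) of the 14 dNTP enzymes, 3 replication genes, 2 mitotic genes and 2 cell cycle inhibitors on the 3 myotube and 3 soleus arrays, with the mean of 3 EDL arrays as a diamond; open circles mark genes not above background on any array of the group. Rrm1, Rrm2, Tyms and Nt5c lie lower in soleus, Dguok slightly higher, and Rrm2b, Dut and Nt5m overlap.

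Genes of mitochondrial DNA upkeep were called about as often as all genes: of 17, 5 were higher, 3 lower and 9 not called, beside 26.6% and 20.7% of all genes, with a median of 0.23 that was -0.95 with spike-in scaling and -0.01 with normexp correction. Polg, the mitochondrial DNA polymerase, read 10.78, 10.60 and 10.64 in myotubes and 10.91, 10.82 and 10.87 in soleus. Cmpk2, a mitochondrial nucleotide kinase induced by interferon, was at least 12-fold higher in soleus, and Nme4, the mitochondrial nucleoside diphosphate kinase, fell by 2.05 ± 0.07.

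Most mitosis genes were lower in soleus, and replication genes were divided between lower and not called. Of 24 replication genes 12 were lower, 1 higher and 11 not called (median -0.96, or -0.76 with genes below background at their bound), and normexp correction gave 5 lower and 2 higher (median -0.32). Of 19 mitosis genes 16 were lower, 1 higher and 2 not called (median -2.08, or -1.71 with genes below background at their bound). As 9 of these 19 were kept by the filter through their myotube signal alone, a lower value in soleus was built into their choice, and of the other 10 genes 8 were lower. Prim1, the primase that starts DNA synthesis, read 10.92, 11.02 and 10.85 in myotubes and 7.69, 7.81 and 7.64 in soleus, a fall by 3.22 ± 0.06. Cdk1, the mitotic kinase, was called lower, at 7.42, 7.73 and 7.60 in myotubes and above background on 1 of 3 soleus arrays. Bub1, a spindle checkpoint kinase, was at least 4.00-fold lower, although it read 0.51 with normexp correction. With normexp correction 2 of the mitosis genes were called lower, the median being -0.02. Cdkn1a (p21), the inhibitor that holds myotubes out of the cycle, fell by 5.85 ± 0.08, from 15.64, 15.95 and 15.98 to 9.84, 10.05 and 10.13. Its relative Cdkn1c (p57) rose by 4.15 ± 0.09, and Cdkn2b (p15) was at least 54.7-fold higher in soleus.

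Immediate early genes, which answer growth factors and stress within minutes, were lower for 11 of 17 and not called for 6 (median -1.35). Socs3, a brake on cytokine signalling, read 16.04, 16.10 and 16.12 in myotubes and 10.79, 10.67 and 10.85 in soleus, a fall by 5.32 ± 0.07. Myc, a transcription factor of growth, fell by 4.39 ± 0.18, Egr3 by 3.95 ± 0.12 and Junb by 3.49 ± 0.05, while Jun read 0.57 ± 0.06. The myotubes had been trypsinised and held 30 min in fresh proliferation medium before lysis, and the muscles were dissected from killed mice, so handling and group cannot be told apart. Chaperones were called about as often as all genes (26.6% higher and 20.7% lower), 4 of 17 being higher, 4 lower and 9 not called (median -0.35). The spike-in count was 3 higher and 12 lower, where 9266 of all 17687 genes were lower. Hspb6, a small heat shock protein of muscle, rose by 8.30 ± 0.08 and Hspb7 by 3.09 ± 0.11, whereas Hspa5, the chaperone of the endoplasmic reticulum, fell by 1.24 ± 0.08.

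Many genes of the other cell types of muscle were higher in soleus. The lists of other cell types and matrix held 141 genes, of which 124 were tested. Of these, 45 passed the filter through their soleus signal alone, so that for them a higher value in soleus was fixed by the filter, and the list counts and medians below include them. Among the 78 well above background on all 6 arrays, 55 were higher, 9 lower and 14 not called. In whole muscle, a difference in the number of cells of a type and a difference in RNA per cell cannot be told apart. Endothelial markers were called higher for 14 of 14 in both the main and the spike-in count, with a median of 7.94, or 6.35 with genes below background at their bound. Of these, 7 passed through soleus alone, and the other 7 were well above background on all 6 arrays. Their summed signal went from between 0.00205% and 0.00221% of all signal on myotube arrays to between 0.138% and 0.145% on soleus arrays. Pecam1, an adhesion molecule of vessel walls, Cdh5, the endothelial cadherin, and Emcn, endomucin, were not well above background in the 3 myotube samples. In soleus Cdh5 read 12.48, 12.44 and 12.35, at least 494-fold higher, and Emcn 12.96, 13.08 and 13.04, at least 750-fold higher. Pecam1 was at least 77.9-fold higher.

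Several of the large metabolic differences belong to genes that these cells also express. Fabp4 and Lpl are known in capillary endothelium and fat, and the fat markers Adipoq and Cfd were at least 47.2-fold and 699-fold higher in soleus. Among 7 tested adipocyte markers 6 were higher, 5 of the 7 having passed the filter through soleus alone, and their summed signal went from between 0.00121% and 0.00139% of all signal to between 0.0938% and 0.110%. The remaining one, Pparg, was not called and read 9.98, 10.04 and 9.99 in myotubes and 10.28, 10.27 and 10.18 in soleus. The part of endothelial or fat cells in the rise of Fabp4 and Lpl was not tested.

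Smooth muscle and pericyte markers were higher for 10 of 11, with Tagln not called (median 2.90). Of these 11, 3 passed the filter through soleus alone, and 7 of the other 8 were higher. Rgs5 and Kcnj8, which mark pericytes, were below the background limit in myotubes and at least 1400-fold and 692-fold higher in soleus. Rgs5 read 14.22, 13.70 and 13.85 there. Acta2, smooth muscle actin, was called higher from its brightest probe (1.33 ± 0.10), but its other 3 probes gave -3.33, -2.88 and -4.44, so its direction is uncertain. Fibroblast markers were higher for all 14 tested (median 4.40, with 11 in the spike-in count). Among them, 4 passed the filter through soleus alone, and the other 10 were well above background on all 6 arrays. Dpt (dermatopontin, a matrix protein) and Thy1 were at least 73.8-fold and 199-fold higher, whereas Dcn (decorin, a collagen-binding proteoglycan) was already at 11.43, 11.80 and 11.82 in myotubes and rose by 4.03 ± 0.07.

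Tendon markers rose in 7 of 8 cases, and the exception was the transcription factor that defines the lineage. Of the 8, 4 passed the filter through soleus alone, which fixed their direction, and of the other 4, 3 were higher and 1 lower. Scx (scleraxis) read 15.44, 15.86 and 15.92 in myotubes and 12.48, 12.56 and 12.85 in soleus, a fall by 3.11 ± 0.08, while Tnmd (tenomodulin), a marker of mature tendon, and Kera (keratocan), a matrix proteoglycan, were at least 129-fold and 478-fold higher. The summed signal of the tendon list, which includes Scx, went from between 0.0548% and 0.0702% to between 0.0278% and 0.0294%. Its median difference was nonetheless 6.09, or 5.80 with genes below background at their bound. Collagen and matrix genes were also divided: 9 of 16 were higher, 4 lower and 3 not called (median 2.17). Col1a1 rose by 3.95 ± 0.06 and Col4a1, of the basement membrane, by 3.13 ± 0.07. Lox, the enzyme that crosslinks collagen, read 11.53, 11.90 and 11.88 in myotubes and 7.04, 7.34 and 7.49 in soleus. It fell by 4.48 ± 0.09, Fn1 (fibronectin) by 3.25 ± 0.16 and Col5a2 by 2.48 ± 0.06.

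**Figure D5:**
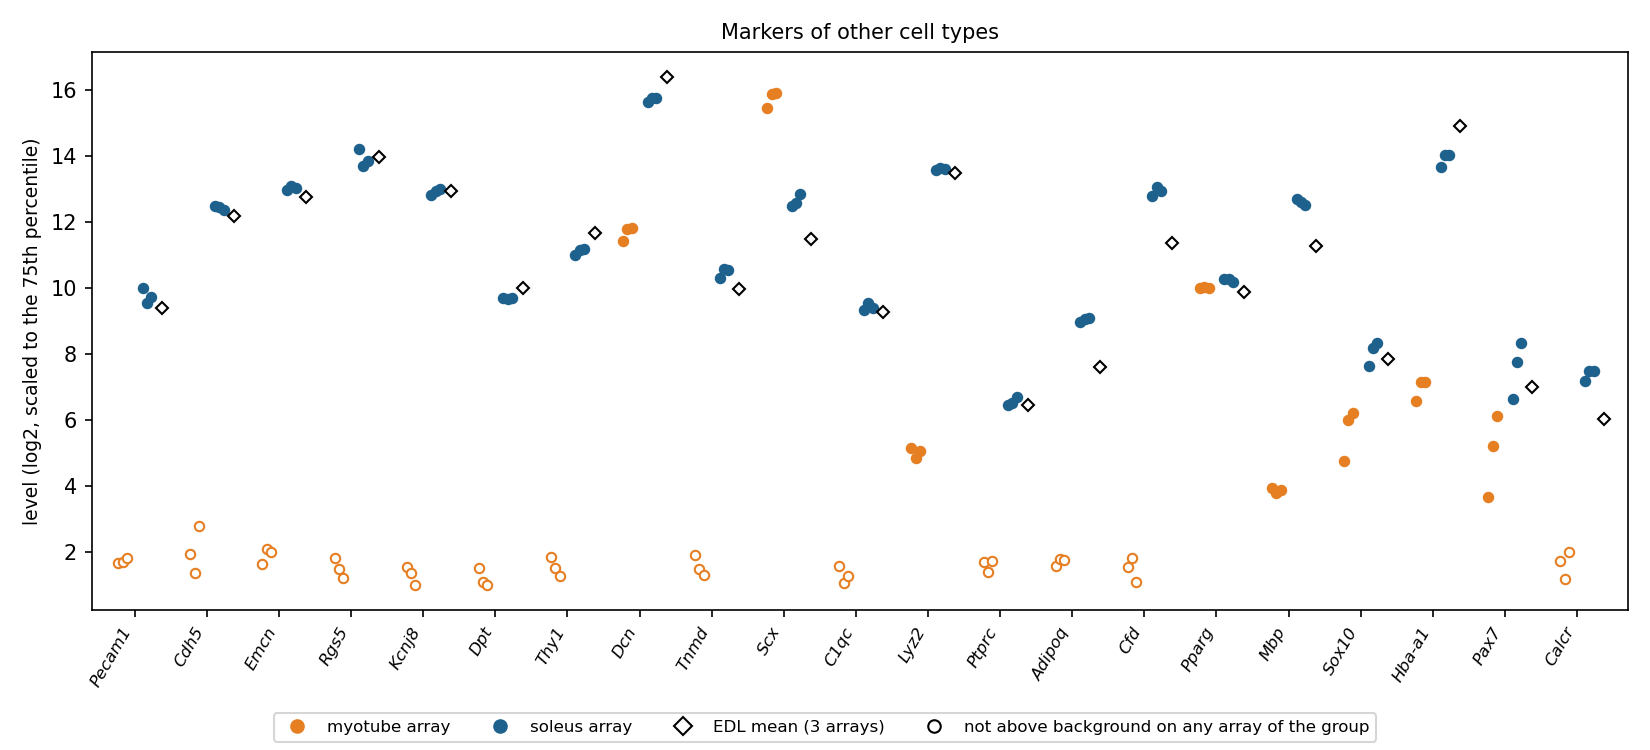
Levels (y axis, log2 scaled to the 75th percentile) of markers of endothelial, mural, fibroblast, tendon, immune, fat, Schwann, red and satellite cells on the 3 myotube and 3 soleus arrays, with the mean of 3 EDL arrays as a diamond; open circles mark genes not above background on any array of the group. The markers below background in myotubes lie between 6.43 (Ptprc) and 14.22 (Rgs5) in soleus, while Scx is higher in myotubes and Pparg near equal.

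Macrophage markers were higher for 11 of 13 tested (median 4.60, or 4.23 at the bounds), and for 5 of the 7 well above background on all 6 arrays. C1qc, a complement component made by tissue macrophages, read 9.32, 9.55 and 9.40 in soleus, at least 61.9-fold above myotubes, and Lyz2 (lysozyme) rose by 8.61 ± 0.10. Adgre1, a surface receptor of mature macrophages, was fitted without 1 myotube array, where its spot was an outlier, and was at least 18.7-fold higher. Cd68 and Cd14 were not called. Lymphocyte, mast cell and granulocyte markers were sparse: of the 15 listed, 7 did not pass the filter and 3 passed it through soleus alone. Of the other 5 genes 2 were higher and 3 not called, and with normexp correction 0 of the 8 tested were called in limma (6 had an unadjusted p under 0.05). Ptprc (CD45, carried by all leukocytes) read 6.43, 6.51 and 6.70 in soleus, at least 8.41-fold higher. Antigen presentation genes were higher for 8 of 10, of which 6 passed through soleus alone, the immunoproteasome subunits Psmb8 and Psmb9, above background on 2 and 1 of 3 myotube arrays, among them, while B2m was not called.

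Schwann cell and nerve markers were higher for 8 of 10. The filter was passed through soleus alone by 2 of the 10 and through myotubes alone by 1, and 6 of the other 7 were higher. Mbp, a myelin protein, was above background on 2 of 3 myotube arrays and read 12.69, 12.62 and 12.51 in soleus, and S100b rose by 4.44 ± 0.10. Nefm, a neurofilament of axons, went the other way and was at least 5.09-fold lower, being not well above background on any soleus array, but read 0.33 with normexp correction. Of the red cell genes Hba-a1 (alpha globin) rose by 6.95 ± 0.09, to 13.65, 14.04 and 14.02. Satellite cells, the stem cells of muscle, gave no single direction: 5 of 10 markers were higher, 4 lower and 1 not called, with a median of 0.95 that was -0.23 with spike-in scaling. The filter was passed through soleus alone by 3 of the 10. Among the 7 well above background on all 6 arrays, 2 were higher, 4 lower and 1 not called. A stricter filter, which tested 7 such markers, gave a median of -1.04. The share of summed signal of all 10 was between 0.0282% and 0.0306% in myotubes and between 0.00883% and 0.00948% in soleus. Pax7, the defining factor of these cells, read 3.64, 5.21 and 6.12 in myotubes, 2 of the 3 above background, and 6.63, 7.74 and 8.33 in soleus, 2.57 ± 0.35. Its values moved with the slide in both groups, and the difference within each slide was 2.98, 2.53 and 2.21. Calcr, the calcitonin receptor of quiescent satellite cells, was at least 14.9-fold higher, whereas Cd82 and Sdc4, surface proteins also found on activated myoblasts, fell by 3.23 ± 0.06 and 2.17, the probes of Sdc4 differing in sign.

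Genes of limb position and imprinting moved in both directions. Of 11 limb position genes tested, 6 were higher, 1 lower and 4 not called, beside 26.6% higher and 20.7% lower over all genes. The filter was passed through soleus alone by 3 of the 11 and through myotubes alone by 1, so the direction of these was built into their choice. Among the 7 well above background on all 6 arrays, 3 were higher, 1 lower and 3 not called. Pitx1, a factor of the hind limb, read 6.65, 6.66 and 6.65 in soleus, at least 9.07-fold above myotubes, and Hoxd8 was at least 51.3-fold higher, while Hoxa11 fell by 1.22 ± 0.09. Of 16 imprinted and IGF system genes, 10 were higher, 4 lower and 2 not called (median 1.67). Among the 13 of them well above background on all 6 arrays, 8 were higher, 3 lower and 2 not called. Meg3 read 4.12, 3.86 and 4.06 in myotubes and 11.74, 12.10 and 12.16 in soleus, Rian, from the same imprinted cluster, was at least 17.3-fold higher, and Grb10, an inhibitor of insulin signalling, rose by 6.58 ± 0.12. Igfbp2 fell by 1.81 ± 0.18. The myotubes are 1 cell line and the muscles come from male CD1 mice, so strain, sex and line history cannot be told apart from the tissue.

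Slide 1 was scanned on another day than slides 2 and 3. Within slides 1, 2 and 3 the median difference was 2.34, 2.10 and 2.02 for slow fibre genes, 1.22, 1.25 and 1.14 for fast fibre genes, and -3.28, -3.29 and -3.29 for embryonic genes. It was 2.04, 1.90 and 1.96 for oxidative phosphorylation, -0.38, -0.44 and -0.35 for dNTP enzymes and 8.21, 7.31 and 8.19 for endothelial markers. The direction of these medians was the same on every slide.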

How the data were processed

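The deposited intensity values are one-colour Cy3 signals written by Agilent Feature Extraction 10.5.1.1, per the file headers, already background-subtracted by the authors' scanner software. Here log2(processed signal) was scaled to the 75th percentile of each array and raised by a constant of 9.65. Control probes and outlier spots were left out, and of 41174 probes the 26670 well above background on all 3 myotube or all 3 soleus arrays were kept; each gene took its probe with the highest mean. Array accessions matched RefSeq for 24375 probes, the other names coming from symbols, synonyms or, for 3142 tested genes, the file's own name. limma 3.58.1 (R 4.3.3) was fitted to all 12 arrays with 4 group means and the slide, marked by the replicate number, as a block. The number paired the samples: same-slide arrays of the 2 groups deviated together (r = 0.459, 0.352 and 0.353) and other pairs less (-0.337 to 0.089). P-values are two-sided with Benjamini-Hochberg adjustment over all genes tested, and there were 6 residual degrees of freedom. With 3 arrays a group, precision is limited by their number. The authors' deposited value table holds linear intensity (column medians 254, 175 and 169 for myotubes, 273, 168 and 161 for soleus, 283, 123 and 198 for EDL and 226, 180 and 157 for myoblasts), uncentred and correlated with the scanner values at 0.9976 or more on the log2 scale; its normalization between arrays is unknown, and it served as an alternative only. Further alternatives were fits without the block or with 6 arrays, quantile or spike-in scaling, normexp correction with an offset of 50, other probe filters, the mean over probes and leaving out each replicate.

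The groups compared and all gene lists were chosen with earlier results of these data known. Named genes were the 6 highest and 6 lowest called, the 6 brightest called in each direction, members of the slow, fast, embryonic, receptor and dNTP lists, and of other lists the 3 largest called differences, the first called in the minority direction and the first not called. Acta2, Adgre1, Cd14, Ckm, Col4a1, Col5a2, Cox7a2, Cox8a, Dcn, Des, Gapdh, Junb, Ldha, Myod1, Pax7, Pecam1, Per1, Per2, Per3, Pgk1 and Sdc4 were added after their values were seen.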

Additional observations from a re-analysis of the deposited data

How the results depend on the processing

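The slide block paired the samples and changed few calls: without the replicate block 4615 genes were higher and 3630 lower on 12 arrays, and 4581 and 3636 on 6 arrays, against 4663 and 3650 with the replicate block on 6 arrays. Leaving out 1 replicate or 1 slide gave 4644 to 4745 higher and 3582 to 3702 lower, and no named gene was reversed, as defined in the next sentence. Of 226 named genes, 205 were at no time reversed across the 19 alternatives, a reversal being a called difference that took the opposite sign, called or not, or a difference not called that was called with the opposite sign. The typical gene dropped by 1.18 with spike-in scaling, by 0.13 with quantile normalization, by 0.12 with normexp correction, where the median over all genes was nonetheless 0.43, and by 0.11 in the authors' values (the median change of a gene). The causes of the changes below were not tested, except that a stricter filter and the authors' values gave fewer genes to test.

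Spike-in scaling gave 2322 genes higher and 9266 lower, normexp 3044 and 2425, with 842 called genes changing sign, and no filter 7260 higher. With spike-in scaling the members called higher were 7 slow fibre, 5 fast fibre, 4 myogenic factor, 2 calcium release, 9 glycolysis, 7 TCA, 14 oxidative phosphorylation, 5 creatine and adenylate, 5 FoxO, 6 clock, 1 mitochondrial DNA, 3 lymphocyte and granulocyte, 3 satellite and 3 limb position genes, and 11 dNTP and 19 replication genes were lower. Quantile normalization and the authors' values each left 5 fast fibre, 7 calcium release and 3 mitochondrial DNA genes higher. The authors' values left 1 Y-linked gene higher, the only member of that list tested there, since genes lacking values in a group were not tested. Normexp left 5 fast fibre, 6 calcium release, 2 mitochondrial DNA and 5 antigen presentation genes higher, 0 of 8 lymphocyte and granulocyte genes in limma (6 had an unadjusted p under 0.05), and 3 dNTP, 5 replication and 2 mitosis genes lower. The stricter filter left 8 mitosis genes lower, and 7 endothelial, 3 tendon, 5 macrophage, 2 lymphocyte and granulocyte, 2 antigen presentation, 1 adipocyte, 1 erythroid, 2 satellite, 3 limb position and 0 Y-linked genes higher, since genes not well above background on all 6 arrays were not tested. The mean over probes left 2 mitochondrial DNA genes higher.

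The reversals, as defined above, were as follows. A difference called in neither fit is not listed, even where its sign changed. Quantile normalization gave Myh8 -0.086, Ptprz1 -0.21, Tnnc2 -0.057 and Tnni2 -0.19, and the authors' values gave Ptprz1 -0.19, Tnnc2 -0.057 and Tnni2 -0.059. Spike-in scaling gave Agrn -0.15, B2m -1.0, Casq1 -0.12, Dguok -0.17, Dut -1.08, Etv5 -1.06, Mcm3 -1.15, Nrf1 -1.13, Nt5m -1.08, Ptprz1 -0.081, Scn4a -0.04, Tnnc2 -0.085 and Tpm1 -0.046. Normexp gave Aurkb 0.70, Bub1 0.51, Dctd 1.03, Gins2 0.16, Myf5 0.45 and Nefm 0.33, and the mean over probes gave Myh8 -1.72.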
